A study of Homo sapiens with 9 samples.

Results

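The S100 proteins are small calcium-binding proteins of vertebrates, and 8 of their genes were followed in HepG2 cells, an established human liver cancer line, after CRISPR targeting of KEAP1. The 8 genes were S100A11, S100A10, S100A6, S100A4, S100A13, S100A14, S100A16 and S100P, found by their Entrez gene numbers among the 11746 numbered genes of the count table. All 8 had counts and all 8 passed the filter on low counts that left 11064 genes for testing. The genes were selected on their counts in these same libraries, with earlier results of the contrasts against sgCtrl known, so their levels and their differences from control are given as a description, without a p-value. Another 3 S100 genes in the table, S100A1, S100A2 and S100A3, did not belong to the selection.

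Each group held 3 libraries. The sgCtrl cells were transduced with lentiCRISPRv2, a lentivirus that carries Cas9 and a guide, with a guide against the AAVS1 safe-harbour locus (sgAAVS168 in the labels). The sgKeap1-1 and sgKeap1-2 cells received the same vector with KEAP1 sequence 1 or sequence 2. All 3 groups therefore carried Cas9 and a guide, had gone through puromycin selection, and gave RNA 48 h after seeding. No cloning step is given in the sources used here, so the libraries are taken as pools of transduced cells, and nothing states that the replicates were separate transductions. The p-values below therefore measure the spread among these libraries, which may be technical.

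KEAP1 is the adaptor that hands the transcription factor NRF2 to the proteasome, and NRF2 that escapes it activates genes with an antioxidant response element. S100 proteins form dimers, and each subunit carries a pair of EF hands, the helix-loop-helix fold that holds calcium. Calcium binding opens a hydrophobic face through which most S100 proteins grip partners such as annexins, cytoskeletal proteins and receptors. S100A10 differs from the rest in that it no longer binds calcium and is held permanently in the open form.

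NQO1, a classical NRF2 target, was at 505 to 536 CPM (its read count scaled to the normalized size of the library) in sgCtrl, 1265 to 1442 CPM in sgKeap1-1 and 1545 to 1900 CPM in sgKeap1-2, and it rose with both guides by edgeR's quasi-likelihood test (log2 fold change 1.38 ± 0.12 SE, adjusted p = 8.25e-06, and 1.74 ± 0.12, adjusted p = 8.47e-07). KEAP1 RNA itself did not pass the test (log2 fold change -0.40, adjusted p = 0.211, and 0.02, adjusted p = 0.952). Reads at the end of a transcript do not report a small edit in the coding sequence, so the KEAP1 level is no check of the editing. Library totals ran from 3011644 to 4725840 reads in numbered genes. All 8 hepatocyte markers of a fixed list had counts, and their summed level was 30033 to 37554 CPM in sgCtrl, 17200 to 21727 CPM in sgKeap1-1 and 14108 to 15829 CPM in sgKeap1-2. Of these markers ALB, APOA1, AFP, FGB and TF fell and TTR rose with each guide, and their part in the S100 values was not tested. Without sgCtrl replicate 3 the TTR call was lost with each guide. The summed fibroblast markers stayed between 6.16 and 15.9 CPM in every library, with 2 of 6 analysed. The leukocyte list, also with 2 of 6, was not low. It summed to 962 to 1802 CPM in sgCtrl, 1000 to 2541 CPM in sgKeap1-1 and 682 to 1535 CPM in sgKeap1-2. In bulk RNA, more cells that express a gene and more RNA per cell cannot be told apart.

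S100A10, S100A11, S100A6, S100A4, S100A16, S100A14 and S100A13 lie on the minus strand of chromosome 1, and S100P lies alone on chromosome 4. On GRCh37 with GENCODE annotation, S100A10 and S100A11 occupied chr1:151955391-151966335 and chr1:152004982-152020383. The other chromosome 1 genes lay further along, from S100A6 (chr1:153507075-153508720) and S100A4 (chr1:153516089-153522612) through S100A16 (chr1:153579362-153585621) and S100A14 (chr1:153586731-153589462) to S100A13 (chr1:153591263-153603836). S100P occupied chr4:6695605-6698897 on the plus strand. The principal transcripts were short, from 434 bases for S100A6 to 1172 bases for S100A16, and had 3 exons in most members, 4 in S100A14 and 2 in S100P.

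All 8 genes had a start-site window in the RefSeq promoter table (GRCh38.p14), and these windows were searched for the letters of known elements. The 250 bases before the first listed start are printed for S100A11, the gene with the widest difference between sgCtrl and the KEAP1 guides, and for S100P, the gene with the highest level. They are given 5′ to 3′ on the gene's strand and were placed on GRCh37 by an exact match. Capitals mark TATAAN, the letters of a TATA box, searched on the sense strand and added to the search after the sequences had been seen.
S100A11 at chr1:152009481-152009730: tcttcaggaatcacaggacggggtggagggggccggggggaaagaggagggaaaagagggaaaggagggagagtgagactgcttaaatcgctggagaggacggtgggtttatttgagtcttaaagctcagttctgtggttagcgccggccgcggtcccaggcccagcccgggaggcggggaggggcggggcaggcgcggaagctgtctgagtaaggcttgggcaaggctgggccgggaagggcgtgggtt
S100P at chr4:6695355-6695604: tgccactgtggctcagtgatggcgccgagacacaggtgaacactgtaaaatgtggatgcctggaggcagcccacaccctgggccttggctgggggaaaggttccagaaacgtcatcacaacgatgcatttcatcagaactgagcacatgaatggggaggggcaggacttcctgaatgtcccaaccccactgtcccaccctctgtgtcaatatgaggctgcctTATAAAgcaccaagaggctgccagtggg

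In the windows of the first listed start, TATAAN was found in 4 of the 8 members, against 7.07% of the 8941 promoters of tested genes, and it began 28 to 31 bases before the start in each of them. S100A13 held it 29 bases before its second listed start. The 30 bases around it are shown for the other 3 members with it at the first start, S100A6, S100A4 and S100A14.
S100A6 at chr1:153508480-153508509: ggcaccgaccgcTATAAGgccagtcggact
S100A4 at chr1:153518296-153518325: gcctggctggggTATAAAtaggtcagacct
S100A14 at chr1:153588813-153588842: ccttcccccaggTATAAGagctgagctcag

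TGACNNNGC, the core letters of the antioxidant response element, was searched on both strands and was present in the 250 bases before the first listed start of 2 members, S100A14 and S100A13, against 12.3% of all 8941 promoters. With the whole window of 300 bases the count was 3 members, S100A16 included, against 15.4%. S100A14 held it in 2 places, once on each strand, and the 30 bases around each are shown with the matched letters in capitals.
S100A14 at chr1:153589010-153589039: tctttctctgTGACTCTGCatgctgatcgg
S100A14 at chr1:153588943-153588972: cctcctcgtgGCAGGGTCAtggtaggctct
TGANTCA, the letters of an AP-1 type site, was in none of the first-start windows of the members, and in 3.5% of all promoters. CACGTG, an E-box, was likewise in none, and in 9.08% of all promoters. The letters can overlap one another, and their absence from a window says only that they do not occur there. The binding of no factor was measured in these libraries.

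In sgCtrl cells the members spread over a wide range of levels. QuantSeq gives a read near the end of each transcript, so CPM were compared between genes without division by length. S100P was highest at 192 ± 76.4 CPM (SD, n = 3), followed by S100A6 at 123 ± 3.68 CPM, S100A13 at 97.9 ± 2.73 CPM and S100A10 at 94.5 ± 15.98 CPM. S100A16 stood at 42.9 ± 9.20 CPM, S100A11 at 13.1 ± 3.398 CPM, S100A4 at 11.6 ± 1.63 CPM and S100A14 at 4.98 ± 2.51 CPM. The sgCtrl libraries overlapped between S100A13 and S100A10 and between S100A11 and S100A4, and did not overlap between the other neighbours in this order. S100P stood above 91.0% of the tested genes and S100A14 above 11.3%.

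By its mean, S100A11 went in the KEAP1 guide groups from the sixth to the fifth place and from above 28.4% of the tested genes to above 77.1% in sgKeap1-1 and 81.7% in sgKeap1-2. S100A10 and S100A13, whose sgCtrl libraries overlapped, also changed places. Neighbours in the order overlapped in sgKeap1-1 for S100A11 with S100A16 and for S100A4 with S100A14, and in sgKeap1-2 for S100A6 with S100A10 and for S100A13 with S100A11. S100P and S100A6 kept the first and the second place in all 3 groups. The summed level of the 8 genes was 580 ± 105 CPM in sgCtrl, 1196 ± 202 CPM in sgKeap1-1 and 1386 ± 210 CPM in sgKeap1-2 (SD, n = 3 each), that is 2.06 and 2.39 times the sgCtrl mean. S100P made up 32.4 ± 6.78% of the sum in sgCtrl, 35.6 ± 6.86% in sgKeap1-1 and 40.7 ± 5.48% in sgKeap1-2.

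**Figure D1:**
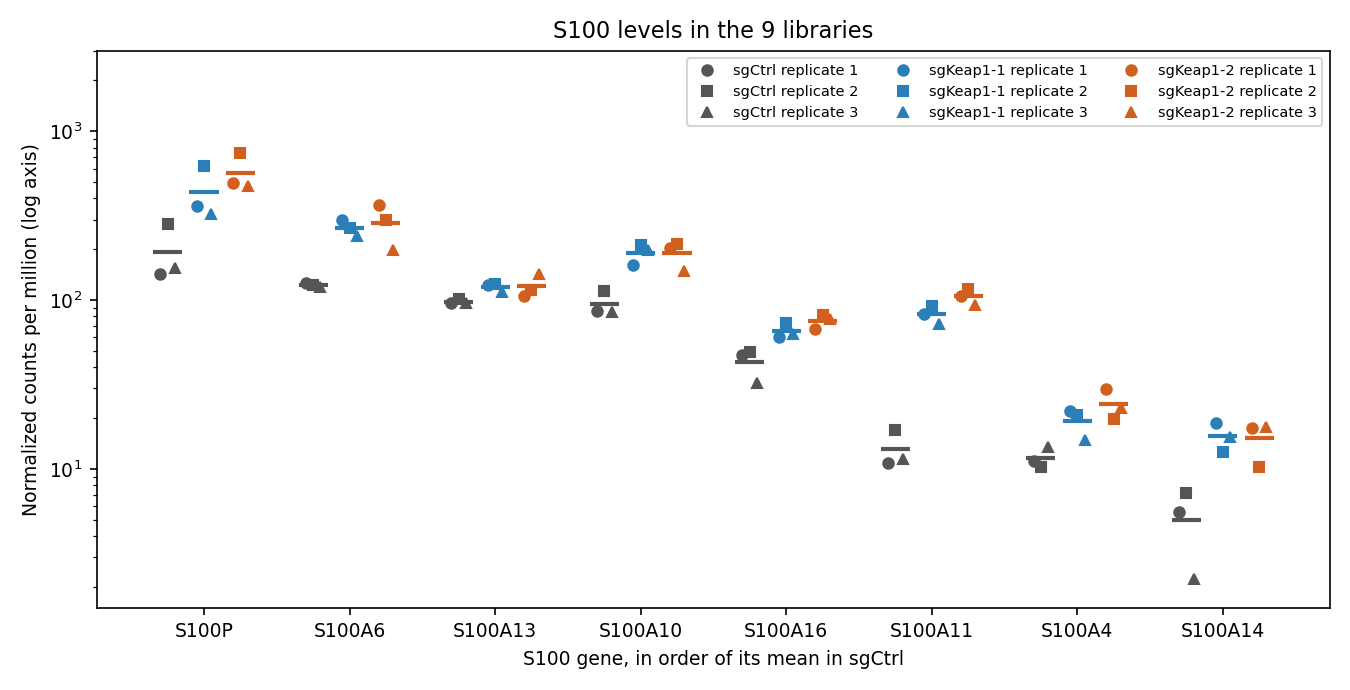
Normalized CPM of the 8 S100 genes on a log axis, 1 point per library with the replicate number as the marker shape, and short lines at the group means. For every gene the 6 libraries of the KEAP1 guides sit above the 3 sgCtrl libraries, with the widest gap at S100A11 (10.9 to 17.01 CPM in sgCtrl and 72.6 to 117 CPM with the KEAP1 guides).

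In each of the 8 genes all 6 libraries of the KEAP1 guides were above all 3 sgCtrl libraries, which was also true of 8.04% of all tested genes. The fit called 4 of the 8 higher with sgKeap1-1, against 2.8% of all tested genes, and 7 of the 8 higher with sgKeap1-2, against 5.96%. With the replicate number as a block, S100A16 and S100P were also called with sgKeap1-1, which made 6 of the 8 against 5.11% of all tested genes called higher under it, while with sgKeap1-2 the 7 called were those of the fit without it (9.11%). The selection drew on these same contrasts, so the counts describe the genes that were selected. The same holds for the calls of single members given below, made or lost, which are no test of these genes. The medians of their log2 fold changes were 1.07 for sgKeap1-1 and 1.14 for sgKeap1-2, where those of all tested genes lay at -0.00 and -0.01. Both contrasts share the sgCtrl libraries.

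S100A11 and S100A10 are the classical annexin partners of the family, S100A11 of annexin A1 and S100A10 of annexin A2. S100A11 was at 10.9, 17.01 and 11.4 CPM in sgCtrl, at 83.1, 92.4 and 72.6 CPM in sgKeap1-1 and at 106, 117 and 93.0 CPM in sgKeap1-2. The sgCtrl libraries rested on 41 to 50 reads of the gene and the others on 276 to 479. The lowest KEAP1 guide library lay well clear of the highest sgCtrl library, and the groups of the KEAP1 guides did not overlap with each other either. Its log2 fold change was 2.67 ± 0.19 (SE) with sgKeap1-1 and 3.02 ± 0.19 with sgKeap1-2, or 6.37-fold and 8.11-fold. GENCODE lists 8 genes named as S100A11 pseudogenes, so its reads could be split between near-identical copies.

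S100A10, which with annexin A2 forms a complex that docks plasminogen at the cell surface, was at 85.9, 113 and 84.8 CPM in sgCtrl, at 161, 211 and 197 CPM in sgKeap1-1 and at 204, 214 and 149 CPM in sgKeap1-2. The KEAP1 guide groups overlapped with each other and not with sgCtrl. Its log2 fold changes were 1.01 ± 0.17 and 1.00 ± 0.17.

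S100A6, S100A4 and S100P bind cytoskeletal proteins and regulators of protein turnover. S100A6, or calcyclin, was at 126, 123 and 119 CPM in sgCtrl, at 297, 268 and 239 CPM in sgKeap1-1 and at 366, 298 and 199 CPM in sgKeap1-2. The sgCtrl libraries were close together, and those of sgKeap1-2 covered the whole range of sgKeap1-1. Its log2 fold changes were 1.13 ± 0.18 and 1.23 ± 0.18.

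S100A4, known for binding non-muscle myosin and for its link to cell motility, was at 11.1, 10.2 and 13.4 CPM in sgCtrl, at 21.9, 20.7 and 14.7 CPM in sgKeap1-1 and at 29.9, 19.8 and 23.02 CPM in sgKeap1-2. Replicate 3 of sgKeap1-1 came close to replicate 3 of sgCtrl. Its log2 fold changes were 0.72 ± 0.24, which the fit did not call with or without the block, and 1.05 ± 0.24. Its call with sgKeap1-2 was lost without sgKeap1-2 replicate 1. The spans of S100A4 and S100A3, introns included, overlap over 1930 bases on the same strand, and reads there could be assigned to either gene. That stretch (chr1:153519805-153521734) lies away from the 3′ end of S100A4 at 153516089, near which its own QuantSeq reads are expected.

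S100P, a member found in placenta and in many carcinomas that binds ezrin and IQGAP1, was at 142, 280 and 154 CPM in sgCtrl, at 362, 620 and 324 CPM in sgKeap1-1 and at 491, 739 and 474 CPM in sgKeap1-2. The groups of the KEAP1 guides stayed above sgCtrl, although replicate 2 of sgCtrl lay near the lowest sgKeap1-1 library. Replicate 2 was the highest in each group, and 86.9% of the tested genes had a smaller spread within groups than S100P. The log2 fold changes of S100P were 1.18 ± 0.33, which the fit did not call without the block, and 1.57 ± 0.34. Its call with sgKeap1-2 was lost without sgCtrl replicate 1 or 3 or sgKeap1-2 replicate 2 or 3. Without the 3 libraries numbered 2, a setting chosen after seeing the data, the fit called 5 members higher with sgKeap1-1, against 2.48% of all tested genes, and 7 with sgKeap1-2, against 4.93%.

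S100A14 and S100A16 are neighbours on chromosome 1. S100A14, an epithelial member, was at 5.56, 7.15 and 2.23 CPM in sgCtrl, at 18.8, 12.6 and 15.5 CPM in sgKeap1-1 and at 17.5, 10.2 and 17.7 CPM in sgKeap1-2. These levels rested on 8 to 21 reads in the sgCtrl libraries, of which 2 reached the filter's minimum of 2.66 CPM, and 91.3% of the tested genes had a smaller spread within groups. Its log2 fold changes were 1.66 ± 0.36 and 1.62 ± 0.36. Its call with sgKeap1-1 was lost without sgCtrl replicate 1 or 3 or sgKeap1-1 replicate 1. S100A16, a widely expressed member, was at 47.4, 49.0 and 32.3 CPM in sgCtrl, at 60.7, 73.2 and 63.1 CPM in sgKeap1-1 and at 67.7, 81.9 and 76.8 CPM in sgKeap1-2. The sgCtrl libraries ended below the lowest KEAP1 guide library, with replicate 3 of sgCtrl apart from the others. Its log2 fold changes were 0.62 ± 0.17, which the fit did not call without the block, and 0.82 ± 0.17.

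S100A13, which takes part in the release of FGF1 from cells, differed least. It was at 96.2, 101 and 96.5 CPM in sgCtrl, at 123, 125 and 111 CPM in sgKeap1-1 and at 106, 115 and 143 CPM in sgKeap1-2. The gap between sgCtrl and the lowest library of the KEAP1 guides was narrow, and the spread of S100A13 within groups was smaller than that of most tested genes. Its log2 fold changes of 0.29 ± 0.14 and 0.31 ± 0.14 were not called with either guide. S100A13 overlaps S100A1 on the opposite strand over 3435 bases, and the strand setting of the counting is not given in the sources used here. It also overlaps the lncRNA ENSG00000271853 on the same strand over 5029 bases, so reads there could be assigned to either gene. Both overlaps are of whole spans, introns included. They lie toward the 5′ end of S100A13, away from its 3′ end, near which its own QuantSeq reads are expected.

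**Figure D2:**
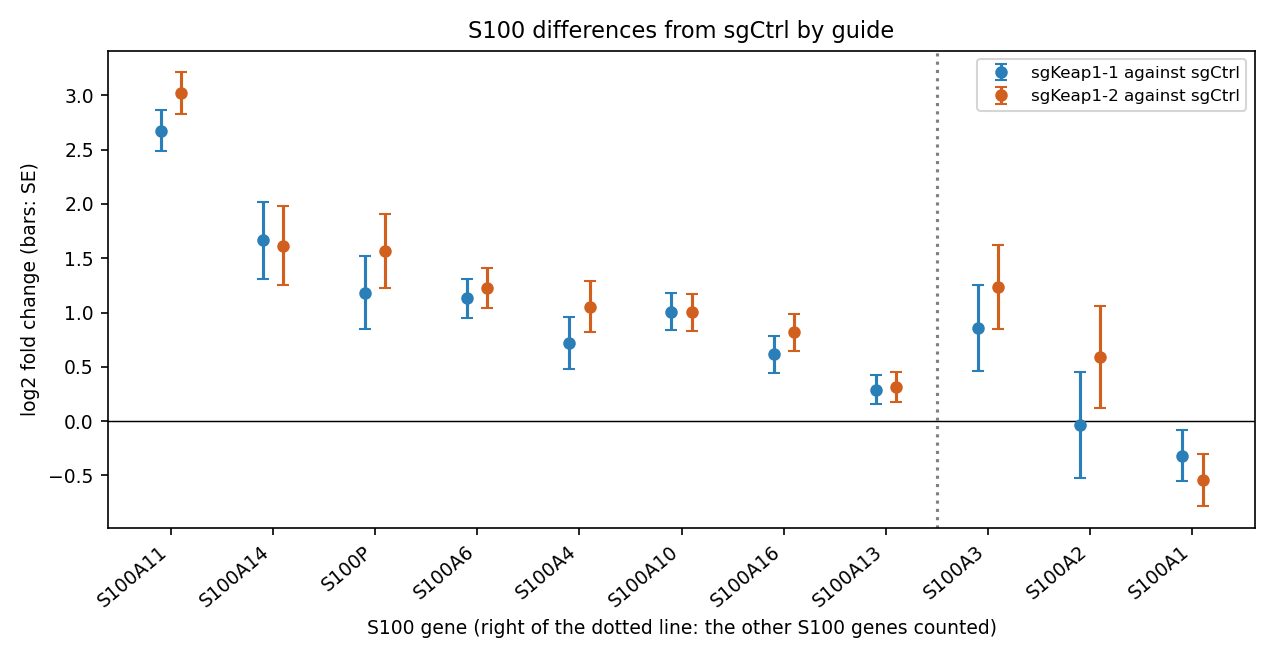
Log2 fold changes against sgCtrl of the 8 S100 genes and, right of the dotted line, of S100A3, S100A2 and S100A1, with bars of 1 SE and 1 colour per guide. S100A11 stands highest with both guides (2.67 and 3.02), S100A13 lowest of the 8 (0.29 and 0.31), and S100A1 is below 0 with both (-0.32 and -0.54).

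The 3 S100 genes outside the selection were low or did not share a direction. S100A1, the member best known from heart muscle, was at 77.1, 56.8 and 46.3 CPM in sgCtrl, 47.3, 43.6 and 54.2 CPM in sgKeap1-1 and 38.5, 28.5 and 56.7 CPM in sgKeap1-2. The groups overlapped, and its log2 fold changes were -0.32 (adjusted p = 0.619) and -0.54 (adjusted p = 0.191). S100A3 was at 1.85 to 2.38 CPM in sgCtrl, 2.89 to 4.38 CPM in sgKeap1-1 and 3.88 to 5.85 CPM in sgKeap1-2, with log2 fold changes of 0.85 and 1.23. With 7, 7 and 8 reads in sgCtrl it passed the filter on low counts only through the KEAP1 guide libraries, so no p-value is given for it. S100A2 was at 1.525 to 6.46 CPM over the 9 libraries, with log2 fold changes of -0.03 (adjusted p = 0.990) and 0.59 (adjusted p = 0.506). By edgeR neither S100A1 nor S100A2 passed the test with either guide, nor did they by limma-voom or DESeq2, while S100A1 had an unadjusted p under 0.05 with sgKeap1-2, as did 23.3% of all tested genes. Without replicate 3 of sgKeap1-2, S100A1 passed with sgKeap1-2 (log2 fold change -0.85, adjusted p = 0.0179). The ratio of S100A13 to S100A1 was 1.70 ± 0.42 in sgCtrl, 2.51 ± 0.42 in sgKeap1-1 and 3.11 ± 0.82 in sgKeap1-2 (SD, n = 3 each).

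The direct comparison of the KEAP1 guides, in which the sgCtrl libraries enter only through the shared estimate of the spread, asked whether the S100 levels depended on the guide. None of the 8 genes was called between sgKeap1-2 and sgKeap1-1 by edgeR, limma-voom or DESeq2, and of all tested genes 2, or 0.0181%, were called by edgeR. Of the 8, S100A11 alone had an unadjusted p under 0.05 by edgeR, as did 562 of all 11064 tested genes. S100A11 was higher with sgKeap1-2 by a log2 fold change of 0.35 (95% interval 0.0048 to 0.69, adjusted p = 0.968). Groups that do not overlap, as seen for S100A11, occurred with sgKeap1-2 on top in 5.5% of all tested genes. S100P differed by 0.38 (-0.36 to 1.12, adjusted p = 0.986) and S100A4 by 0.33 (-0.14 to 0.81, adjusted p = 0.986). S100A16 differed by 0.20 (-0.15 to 0.55) and S100A6 by 0.10 (-0.28 to 0.48). The differences of S100A13 (0.02, -0.26 to 0.31), S100A10 (-0.01, -0.36 to 0.35) and S100A14 (-0.05, -0.71 to 0.62) were near 0. The interval for S100A13 was the narrowest and that for S100P the widest, so a difference of the size seen for S100A11 would have been inside the interval for S100P, S100A4, S100A16, S100A6 and S100A14.

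**Figure D3:**
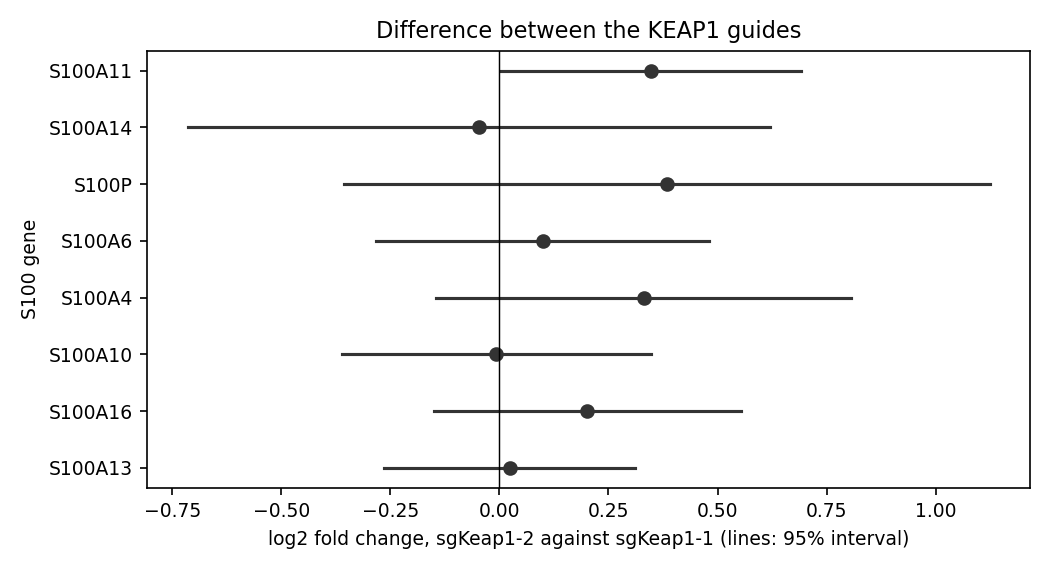
Log2 fold change of each S100 gene with sgKeap1-2 against sgKeap1-1, with lines for the 95% interval. The interval of S100A11 (0.0048 to 0.69) leaves out 0 before adjustment over all genes, and the other 7 intervals include 0.

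The selected genes of chromosome 1 were compared with the tested genes beside them. No tested gene other than S100 genes lay between S100A10 and S100A13. The 9 tested neighbours outside them had median log2 fold changes of 0.03 with sgKeap1-1 and 0.03 with sgKeap1-2. Their adjusted p-values were at least 0.556 and 0.279 with the respective guide, the smallest being that of THEM4 and that of ILF2. Of the 10 tested neighbours of S100P on chromosome 4, the fit called 1, KIAA0232, with sgKeap1-2 (log2 fold change 0.57, adjusted p = 0.0385), and it lost the call without replicate 1, 2 or 3 of sgCtrl or replicate 1 or 2 of sgKeap1-2 (adjusted p from 0.0866 to 0.143). The median of these 10 was -0.12 with sgKeap1-1 and -0.04 with sgKeap1-2.

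**Figure D4:**
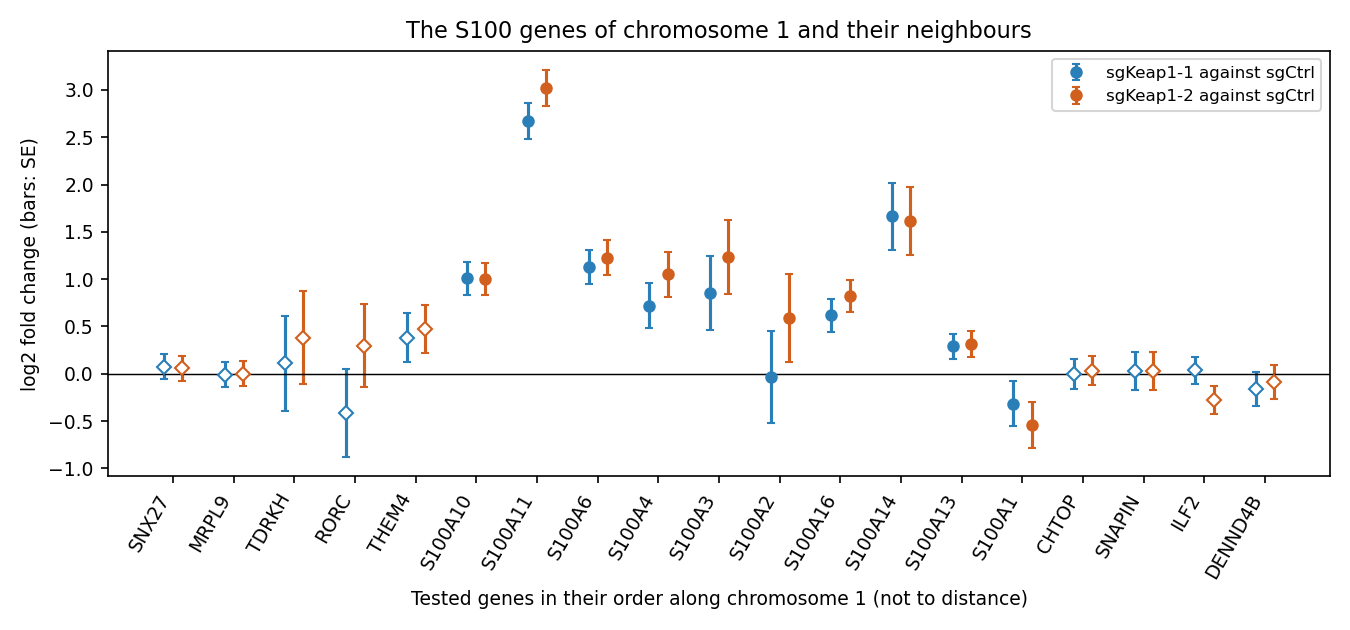
Log2 fold changes against sgCtrl, with bars of 1 SE, of the tested genes in their order along chromosome 1, with filled circles for S100 genes and open diamonds for their neighbours. The neighbours lie around 0 (medians 0.03 and 0.03), and the S100 genes run from S100A11 at 2.67 and 3.02 to S100A1 at -0.32 and -0.54.

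Annexins, the calcium-dependent membrane binders that several S100 proteins join, were the first list of partners. Of the 8 tested, ANXA2 and ANXA6 rose with sgKeap1-2 (2 of 8, against 5.96% of all tested genes called higher). With sgKeap1-1 none passed by edgeR without the replicate block or by limma-voom, while DESeq2 called 2, against 5.16% of all tested genes. By edgeR 3 had an unadjusted p under 0.05 with sgKeap1-1, against 15% of all tested genes. Under the block edgeR called 2 higher with sgKeap1-1, against 5.11% of all tested genes. With sgKeap1-2 the block gave 4 higher, against 9.11%, and 1 lower. The log2 fold changes of the annexins had a median of 0.33 for sgKeap1-1 and 0.42 for sgKeap1-2. ANXA2, the partner of S100A10, was at 109, 151 and 108 CPM in sgCtrl, 197, 234 and 148 CPM in sgKeap1-1 and 168, 191 and 242 CPM in sgKeap1-2. Its lowest sgKeap1-1 library lay inside the sgCtrl range, and all sgKeap1-2 libraries were above it. The log2 fold changes were 0.65 ± 0.19 (adjusted p = 0.0805) and 0.71 ± 0.19 (adjusted p = 0.0298). ANXA2 passed with sgKeap1-1 in 5 of the 19 alternatives. They were the replicate block (adjusted p = 0.0278), DESeq2 (0.0405) and the fits without sgCtrl replicate 2 (0.0383), sgKeap1-1 replicate 3 (0.0341) or sgKeap1-2 replicate 3 (0.0408). The call with sgKeap1-2 was lost without sgCtrl replicate 1 (adjusted p = 0.134), sgCtrl replicate 3 (0.127), sgKeap1-2 replicate 2 (0.0564) or sgKeap1-2 replicate 3 (0.0863). ANXA6 rose by 0.43 ± 0.13 with sgKeap1-2 (adjusted p = 0.0491), and the call was lost without any 1 library except sgKeap1-1 replicate 2 and sgKeap1-2 replicate 1, with adjusted p up to 0.157. No annexin passed with sgKeap1-2 without sgCtrl replicate 1, sgCtrl replicate 3 or sgKeap1-2 replicate 2, and 1 passed without sgCtrl replicate 2 or sgKeap1-1 replicate 1. ANXA11, a partner of S100A6, had log2 fold changes of 0.21 (adjusted p = 0.556) and 0.42 (adjusted p = 0.0856), and passed with sgKeap1-2 in 1 of the 19 alternatives, the replicate block. The ratio of S100A10 to ANXA2 was 0.771 ± 0.020 in sgCtrl, 1.02 ± 0.28 in sgKeap1-1 and 0.982 ± 0.319 in sgKeap1-2 (SD, n = 3 each), and the single ratios of the KEAP1 guide libraries ran from 0.618 to 1.34.

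Intracellular targets formed the second list, with 10 of 16 tested. DLC1, a GTPase-activating protein that S100A10 binds, was at 132 to 143 CPM in sgCtrl, 90.1 to 105 CPM in sgKeap1-1 and 75.4 to 95.1 CPM in sgKeap1-2, and it fell with both guides (log2 fold change -0.51 ± 0.13, adjusted p = 0.0410, and -0.65 ± 0.13, adjusted p = 0.00476). The call with sgKeap1-1 was lost without sgCtrl replicate 1 (adjusted p = 0.168), 2 (0.0899) or 3 (0.104) or sgKeap1-1 replicate 1 (0.184) or 3 (0.120), whereas that with sgKeap1-2 held in all 19 alternatives. IQGAP1, the scaffold that S100P binds, was at 67.5 to 77.6 CPM in sgCtrl and 100 to 111 CPM in sgKeap1-2, where it rose (0.53 ± 0.12, adjusted p = 0.0117). It lost the call without sgCtrl replicate 3 (adjusted p = 0.0713). The whole list had 1 lower with sgKeap1-1 (all tested genes: 1.4% lower), and 2 higher and 1 lower with sgKeap1-2 (5.96% and 4.85%). The median log2 fold change was 0.07 and 0.06 over the 9 genes that did not pass the filter on low counts through the KEAP1 guide libraries alone.

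Among the targets of S100A4, S100A6, S100P and S100A10, MYH9, CACYBP, EZR, S100PBP and AHNAK did not pass edgeR's test without the replicate block with either guide. MYH9, the heavy chain of non-muscle myosin IIA, was at 223 to 280 CPM in sgCtrl and 255 to 280 CPM with the KEAP1 guides, with log2 fold changes of 0.07 (adjusted p = 0.875) and 0.05 (adjusted p = 0.874). CACYBP, the calcyclin-binding protein, had -0.09 (adjusted p = 0.871) and -0.25 (adjusted p = 0.352). EZR, or ezrin, had 0.22 (adjusted p = 0.559) and 0.48 (adjusted p = 0.0540), and passed with sgKeap1-2 in 4 of the 19 alternatives. They were the replicate block, DESeq2 (adjusted p = 0.0402) and the fits without sgKeap1-1 replicate 2 (0.0479) or sgKeap1-2 replicate 2 (0.0364). S100PBP, the S100P-binding protein, had -0.13 (adjusted p = 0.834) and 0.11 (adjusted p = 0.767). AHNAK, a large scaffold held by the S100A10 and annexin A2 complex, had 0.22 (adjusted p = 0.747) and -0.05 (adjusted p = 0.927).

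Cell-surface receptors of S100 proteins and genes of plasminogen activation were the third list, with 4 tested. Of these, 3 did not pass the filter on low counts through the KEAP1 guide libraries alone. By edgeR none of the 3 passed with either guide, none had an unadjusted p under 0.05, and none was called in any of the 19 alternatives. BSG, a surface receptor for some S100 proteins, was at 117 to 186 CPM over the 9 libraries, with log2 fold changes of 0.04 (adjusted p = 0.957) and -0.20 (adjusted p = 0.532). PLAUR, the urokinase receptor, had 0.09 (adjusted p = 0.946) and 0.37 (adjusted p = 0.487).

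Other proteins with EF hands were taken as the wider family of calcium sensors, with 32 of 37 tested, of which CALB2 passed the filter on low counts only through the KEAP1 guide libraries. Of the other 31, 1 rose with sgKeap1-1 and 5 rose with sgKeap1-2, against 2.8% and 5.96% of all tested genes, and none fell in the fit without the block. Under the replicate block 3 rose and 1 fell with sgKeap1-1, and 10 rose and 2 fell with sgKeap1-2. Of all tested genes the block called 977 and 1956, with 5.11% and 9.11% higher. The median log2 fold change of the 31 without the block was 0.12 and 0.13. CAPN2, the large subunit of m-calpain, was at 7.15, 7.15 and 3.35 CPM in sgCtrl, 19.7, 21.1 and 19.2 CPM in sgKeap1-1 and 21.5, 21.5 and 26.9 CPM in sgKeap1-2. Its groups with and without KEAP1 guides were well apart, and the log2 fold changes were 1.77 ± 0.27 (adjusted p = 0.000993) and 1.99 ± 0.27 (adjusted p = 0.000179). CALB2, or calretinin, had no read in any sgCtrl library, where 3 reads over the group would be 0.291 CPM. It was at 2.28 CPM in sgKeap1-1 and 3.44 CPM in sgKeap1-2 on average, at least 7.84-fold and 11.8-fold higher. No p-value is given for it. CAPN1, the large subunit of µ-calpain, rose by 0.69 ± 0.19 with sgKeap1-2 (adjusted p = 0.0284). Its call was lost without sgCtrl replicate 2 (adjusted p = 0.109) or 3 (0.0589) or sgKeap1-2 replicate 1 (0.0588) or 2 (0.0990). CIB1, a calcium- and integrin-binding protein, rose by 0.67 ± 0.16 (adjusted p = 0.0128), and the call was lost without sgCtrl replicate 3 (adjusted p = 0.0735) or sgKeap1-2 replicate 2 (0.0502). Without sgCtrl replicate 2, sgCtrl replicate 3 or sgKeap1-2 replicate 1, the count of the 31 with sgKeap1-2 was 2, 1 and 2. Without sgKeap1-2 replicate 3 their count with sgKeap1-1 was 4, of which 1 was lower, and with sgKeap1-2 4 were higher and 1 lower.

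For the 3 members of the highest mean level, the genes of most similar pattern were sought among 8646 tested genes with a mean of at least 10 CPM, by Pearson's r of log2 CPM over the 9 libraries. These values describe the same libraries that differ by group, and any gene that differs between sgCtrl and the KEAP1 guides gains by that. Nearest to S100P were IL11, a cytokine (r = 0.982), FN1, or fibronectin (0.981), and ABCC2, an organic anion pump (0.979). Nearest to S100A6 were CTTN, or cortactin (0.983), ASF1A, a histone chaperone (0.980), and ZNF746, a zinc-finger protein (0.972). Nearest to S100A10 were ASAP2, an Arf GTPase-activating protein (0.984), TXNRD1, or thioredoxin reductase (0.981), and GCLC, the catalytic subunit of glutamate-cysteine ligase (0.978).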

How the data were processed

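HepG2 libraries were made by the authors with the QuantSeq 3' mRNA kit, and the deposited table holds raw counts of reads per gene for 9 libraries. The submitters' processing notes name FastQC 0.72, cutadapt 1.16, STAR 2.7.5b, featureCounts 1.6.3 and limma 3.40.6. They name hg38, whereas the methods name GRCh37, and the table holds no coordinates. Strand setting and annotation are not given in the sources used here.

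Of 12798 rows, 1052 had no gene number (1.34% of counts) and stayed out of library sizes and tests. Of 11746 gene numbers, 11740 matched a symbol. Counts were normalized by TMM (factors 0.972 to 1.03), filtered with filterByExpr and tested in edgeR 4.0.16 (R 4.3.3) by the robust quasi-likelihood test over 9 libraries with group as the only term and Benjamini-Hochberg adjustment, threshold 0.05. CPM are TMM-normalized. Intervals are 95%. Floors cover counting error only. Alternatives were a replicate block, DESeq2 1.42 size factors and Wald test, library size only, limma-voom (limma 3.58.1), other filters, only the groups compared, each library left out, and, chosen after seeing the data, numberless rows kept and the 3 libraries numbered 2 left out.

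The members and lists were chosen with earlier results of these data known. Named were all S100 genes, KEAP1, NQO1, known partners, called genes of each list (at most 4 per direction), the 3 features most like each of the 3 highest members, and called neighbours, and a few genes of the lists are counted there but not reported here by name. Same-group libraries differed beyond sampling noise (chi-square per degree of freedom at least 4.63). On simulated data for sgKeap1-2 against sgCtrl with 10745 genes, of which 200 changed, edgeR called 115, recovered 107 (92.4% at 4-fold, 53.7% at 2-fold, 14.9% at 1.5-fold) and had 6.96% false calls. The simulated counts were drawn independently, with no deviation shared by same-numbered libraries and a spread set by level alone. These rates therefore need not hold for the real libraries.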

Additional observations from a re-analysis of the deposited data

How the results depend on the processing

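The log2 fold changes of the 8 S100 genes against sgCtrl were positive in 151 of 151 refits for each guide. In each of these selected genes all 6 KEAP1 guide libraries lay above all 3 sgCtrl libraries. Leaving out libraries or rescaling them slightly could therefore hardly turn a sign, so the signs lend no support. Of the values, 1 moved by more than the spread between replicates, S100A14 with sgKeap1-2 at 2.17 without the libraries numbered 2. Between guides none of 151 was called. With at least 10 counts in every library S100A14 had no value. Other scalings changed the group means of the members' CPM by at most 1.01-fold. Over the 19 alternatives the members called were 3 to 6 with sgKeap1-1 and 6 to 7 with sgKeap1-2. Among the 8 genes S100A14 had the fewest reads in sgCtrl, 8 to 21. S100A2 with sgKeap1-1 turned from -0.03 to 0.67 without the libraries numbered 2 (the cause was not tested).

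Over all genes, leaving out 1 library gave 278 to 688 calls with sgKeap1-1 (465 with all), 764 to 1291 with sgKeap1-2 (1196) and 0 to 2 between guides (2). Between guides limma-voom, at least 10 counts in every library and only the 2 groups compared each gave 0 calls, and DESeq2 gave 19. Under a replicate block the calls were 977, 1956 and 26, of which 465, 1194 and 2 were also called without it. The same-numbered libraries share a prefix in the labels whose meaning is not given, and their deviations from the group means correlated with r over 0.1 in 7 of 9 pairs (range -0.013 to 0.521, mean 0.23 against -0.12 for different numbers). Only 5 of 9 libraries correlated best with their own number in both other groups. The 3 pairs of sgCtrl with sgKeap1-1 were all above 0.1 (0.163 to 0.378). Because not every one of the 9 was, the main values carry no block, and whether the numbers mark pairs was not settled. Under the block 6 (with S100A16 and S100P) and 7 members were called, the annexins called were 2 (ANXA2 at adjusted p = 0.0278 with sgKeap1-1) and 5 (ANXA11 at 0.0219 with sgKeap1-2), the other EF-hand genes without CALB2 4 (CIB1 at 0.0149 with sgKeap1-1) and 12, the epithelial and mesenchymal genes 4 with sgKeap1-1 (KRT18 at 0.0184), and EZR passed with sgKeap1-2 (adjusted p = 0.00675).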

Other observations

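Genes of epithelial and mesenchymal cells were tested as a further list, with 7 of 10 tested. CDH1, or E-cadherin, was at 8.74, 21.4 and 8.92 CPM in sgCtrl, 40.4, 41.0 and 48.1 CPM in sgKeap1-1 and 56.3, 45.9 and 39.7 CPM in sgKeap1-2. It rose with both guides (edgeR log2 fold change 1.76 ± 0.29, adjusted p = 0.00231, and 1.88 ± 0.29, adjusted p = 0.000733). FN1, or fibronectin, rose by 0.69 ± 0.17 (adjusted p = 0.0344) and 0.79 ± 0.17 (adjusted p = 0.00807). Its call was lost with sgKeap1-1 without sgCtrl replicate 1 or 3, sgKeap1-1 replicate 1 or 2 or sgKeap1-2 replicate 1 (adjusted p from 0.0513 to 0.178) and with sgKeap1-2 without sgCtrl replicate 3 (0.0512). KRT18, an epithelial keratin, rose with sgKeap1-2 (0.61 ± 0.13, adjusted p = 0.00789), except without sgCtrl replicate 1 (0.0557). The list had 2 and 3 genes higher with the respective guide, against 2.8% and 5.96% of all tested genes, and none lower (1.4% and 4.85%). Without sgKeap1-2 replicate 3 the count with sgKeap1-1 was 4. CDH2, or N-cadherin, had -0.03 (adjusted p = 0.965) and -0.21 (adjusted p = 0.387). KRT19, a cholangiocyte keratin, was at 193 to 257 CPM in sgCtrl and rose with both guides (1.28, adjusted p = 0.00193, and 1.48, adjusted p = 0.000346), while EPCAM and SOX9 were not called with either.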
